A study of Homo sapiens with 9 samples.

Results

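NR4A1, NR4A2 and NR4A3 are the 3 members of one family of nuclear receptors, the transcription factors also named NUR77, NURR1 and NOR1. They were taken by their Ensembl IDs, ENSG00000123358.20, ENSG00000153234.15 and ENSG00000119508.18, as 3 of the 19569 gene IDs in a table of ribosome footprint counts. RefSeq lists all of them as protein-coding, NR4A1 on chromosome 12, NR4A2 on chromosome 2 and NR4A3 on chromosome 9. Ribosome profiling counts the short mRNA fragments covered by ribosomes, so a gene's count follows both the amount of its mRNA and the ribosomes loaded on each copy. The cells were Jurkat clone E6-1, a human T lymphoblast leukaemia line, and a single cloned line is not a population of primary T cells. The libraries comprised 3 biological replicates of non-activated (resting) cells, 3 of cells activated for 5 h and 3 of cells activated for 12 h. The resting libraries are labelled 0 h, and there were no non-activated libraries at 5 h or 12 h. Activation and time in culture therefore cannot be told apart. Activation combined anti-CD3 antibody, coated on the plate at 10 µg/mL, with anti-CD28 antibody in the medium at 5 µg/mL, and thus engaged the T cell receptor complex and its costimulatory receptor.

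The NR4A receptors are called orphan receptors because no classical hormone is needed for their activity: the pocket that binds ligand in other nuclear receptors is filled by the protein's own side chains. How much of the protein is made therefore largely sets what the receptor can do, and the genes belong to the immediate-early class, transcribed soon after a stimulus without prior protein synthesis. In T cells they are switched on through calcium and kinase signals from the T cell receptor, and NR4A1 reporters are widely used as a readout of receptor signal strength. The proteins bind DNA through a conserved zinc-finger domain, as monomers at an element named NBRE or as dimers, and have been tied to death of self-reactive thymocytes, to regulatory T cells and to the dysfunction of chronically stimulated T cells.

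Library totals ran from 4343515 to 18506509 counts, with the lowest in 12 h replicate 2 and the highest in 5 h replicate 3. Levels are given as CPM, counts per 1000000 after scaling the libraries with edgeR's TMM factors, and differences as log2 fold changes with their standard error (SE). All fold changes are relative to the scaled libraries, so that a cell-wide rise or fall in translation is not visible in them. An ID was called changed at a Benjamini-Hochberg adjusted p under 0.05 in edgeR's quasi-likelihood test over 13920 IDs. All 3 genes passed the low-count filter, but NR4A2 passed through its 5 h counts: without the 5 h libraries it would have been removed. Gene names were not paired with the other IDs here, so markers of T cells and of other cell types were not checked.

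The sequence just before the start sites is shown for the members that RefSeq's promoter table (GRCh38.p14) holds, NR4A1 and NR4A3. Whether this sequence bears on the rise of the genes was not tested. NR4A2 was not matched. Each run is the 250 bases before a start site on the plus strand, 5′ to 3′. Capitals mark TGACG, the core that cyclic AMP response elements (CRE) share, GGAAA, the core bound by NFAT proteins, and TANNNNTA, a loose form of the MEF2 element, each on either strand. NFAT and MEF2 factors act downstream of calcium in T cells, and CREB downstream of kinases. The table gives 2 start sites for NR4A1, and which of them the footprinted mRNA came from was not examined.
NR4A1, first start, chr12:52022582-52022831: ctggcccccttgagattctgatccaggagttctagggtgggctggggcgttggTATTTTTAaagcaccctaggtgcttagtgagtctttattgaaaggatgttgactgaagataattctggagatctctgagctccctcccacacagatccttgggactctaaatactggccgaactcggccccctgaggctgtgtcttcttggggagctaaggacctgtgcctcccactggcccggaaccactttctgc
NR4A1, second start, chr12:52037465-52037714: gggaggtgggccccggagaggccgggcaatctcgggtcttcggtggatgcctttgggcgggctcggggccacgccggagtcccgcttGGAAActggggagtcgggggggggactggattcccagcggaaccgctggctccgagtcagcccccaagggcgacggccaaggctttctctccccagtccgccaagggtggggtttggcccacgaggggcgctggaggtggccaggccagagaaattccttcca
NR4A3, chr9:99821635-99821884: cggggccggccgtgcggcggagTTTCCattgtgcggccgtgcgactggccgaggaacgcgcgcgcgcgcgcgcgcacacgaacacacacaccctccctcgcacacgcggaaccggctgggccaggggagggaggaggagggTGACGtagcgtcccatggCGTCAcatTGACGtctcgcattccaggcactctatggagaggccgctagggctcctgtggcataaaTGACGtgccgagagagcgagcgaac

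The NR4A3 window held 4 matches to TGACG or its reverse complement CGTCA, at 109 to 105, 91 to 87, 83 to 79 and 25 to 21 bases before the start. Of 35116 RefSeq windows of the same length, 21.2% held at least 1 such match and 0.236% held 4 or more. Neither NR4A1 window held one. GGAAA or its reverse complement TTTCC was found once in the NR4A3 window, at 228 to 224 bases before the start, and once in the second NR4A1 window, at 163 to 159 bases, and 55.6% of all windows held it. The full palindromic CRE, TGACGTCA, which contains the shorter core, was in none of the 3 windows and in 1.65% of all. The same held for the AP-1 element TGANTCA (6.57% of all windows) and the NBRE AAAGGTCA with its reverse complement TGACCTTT (1.05%). TANNNNTA, its own reverse complement, was found once, at 197 to 190 bases before the first NR4A1 start, and 27.6% of all windows held it. These matches describe letters only, and binding was not measured.

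**Figure D1:**
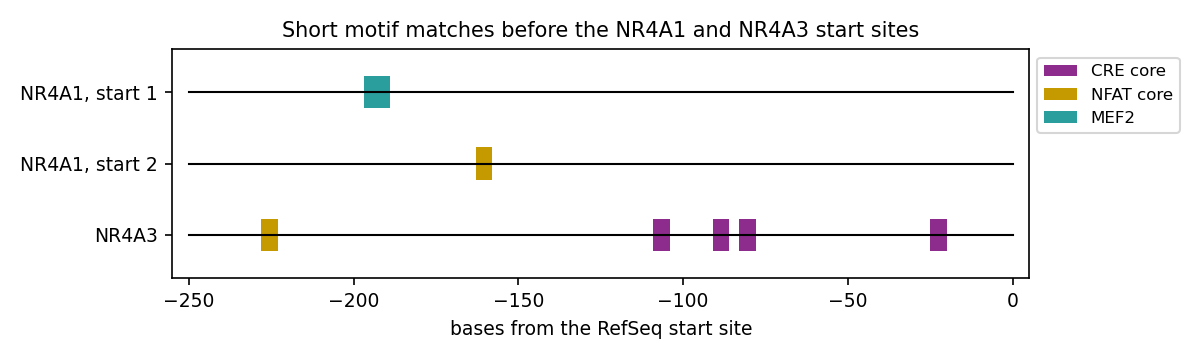
Matches to TGACG (CRE core, purple), GGAAA (NFAT core, yellow) and TANNNNTA (MEF2, teal), either strand, in the 250 bases before each RefSeq start site, with position in bases from the start on the horizontal axis and 1 line per start site. The 4 CRE cores lie in the NR4A3 window, and the MEF2 match lies in the first NR4A1 window.

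How strongly the family responds early is asked by setting the 5 h libraries against the resting ones. NR4A1 had 69, 68 and 69 footprints in the 3 resting libraries and 7599, 6940 and 13030 in the 5 h libraries. Scaled, these were 8.04, 7.47 and 7.15 CPM at rest and 766, 520 and 707 CPM at 5 h, and the groups were far from overlapping. NR4A1, the member best known as a marker of receptor signalling, thus rose from 7.55 ± 0.449 to 665 ± 128 CPM (SD, n = 3). The log2 fold change was 6.46 ± 0.16 (SE; 95% interval 6.12 to 6.80), an 88.0-fold rise (edgeR quasi-likelihood test, adjusted p 6.10e-19). In bulk libraries, more footprints per cell and more cells that respond cannot be told apart. The resting libraries lay within 1.12-fold of each other and the 5 h libraries within 1.47-fold.

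NR4A3, a member known as a fusion partner in a soft tissue sarcoma, had 15, 17 and 25 footprints at rest and 1388, 1487 and 2450 at 5 h. In CPM these were 1.75, 1.87 and 2.59 at rest and 140, 111 and 133 at 5 h. Again every 5 h library stood far above every resting library. The mean rose from 2.07 ± 0.456 to 128 ± 14.8 CPM (SD, n = 3), a log2 fold change of 5.93 ± 0.18 (SE; 95% interval 5.56 to 6.31), or 61.2-fold, with an adjusted p of 1.99e-17 by edgeR.

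NR4A2, the member known above all for its part in midbrain dopamine neurons, rose from far fewer footprints. It had 5, 3 and 4 counts at rest and 109, 44 and 142 at 5 h, or 0.582, 0.330 and 0.414 CPM against 11.0, 3.30 and 7.71 CPM. The lowest 5 h library was above the highest resting library, but the 5 h libraries differed among themselves by 3.33-fold. The mean went from 0.442 ± 0.129 to 7.33 ± 3.86 CPM (SD, n = 3), and the log2 fold change was 4.02 ± 0.66 (SE; 95% interval 2.65 to 5.38), or 16.2-fold, with an adjusted p of 3.83e-05 by edgeR. Only 12 footprints stood behind the resting level in all. The ratio of pooled CPM was 16.1, with an exact 95% counting interval from 9.09 to 31.6 that covers counting error only. At 5 h NR4A2 held 0.519% to 1.20% of the summed NR4A counts. How fragments shared by the NR4A genes were assigned is not given. Whether such fragments add to the NR4A2 counts, here and in its later levels, shares and ratios, was not tested.

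All 3 genes were called higher at 5 h, beside 16.0% of all IDs tested, and each was both called and raised more than 4-fold, as were 2.60% of IDs. Libraries without overlap, higher at 5 h, were seen for each member and for 23.1% of all IDs. The median log2 fold change was 5.93 over the members and 0.07 over all IDs tested. Ordered from the largest rise down, NR4A1 was number 31 of 13920 IDs, NR4A3 number 48 and NR4A2 number 109. NR4A2 passed the low-count filter only through its 5 h counts, so its call and rank here are not independent of that filter. In all 3 genes 5 h replicate 2 was the lowest of the 5 h libraries. By the summed CPM of the family, the resting libraries lay between 9.67 and 10.4, and the 5 h libraries between 635 and 917.

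**Figure D2:**
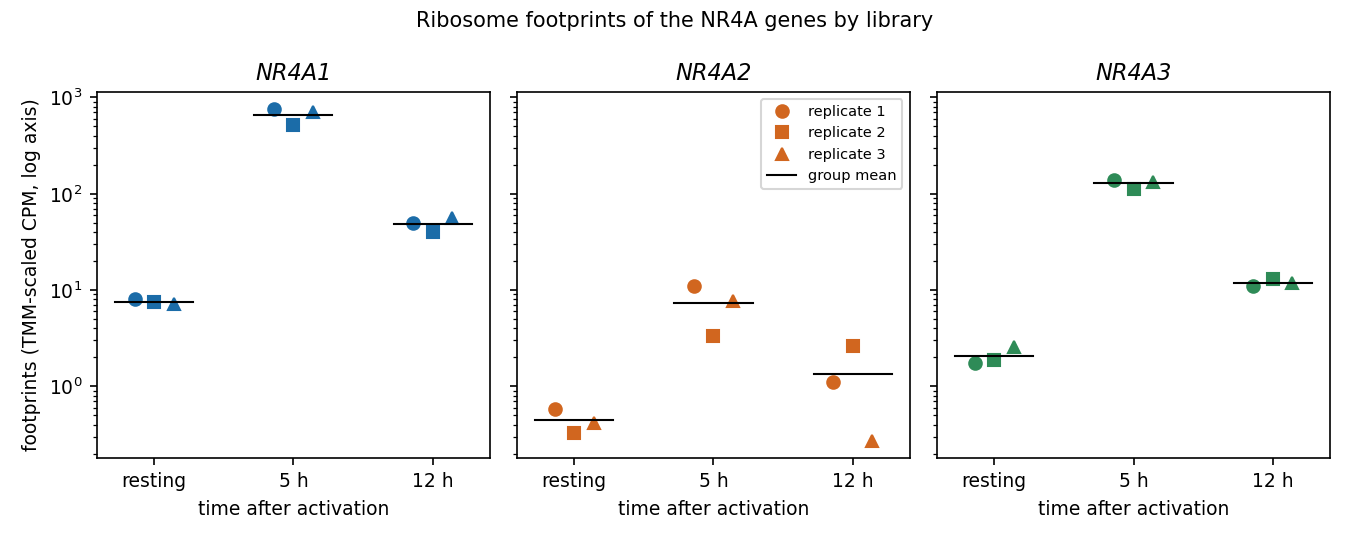
Footprint level of each NR4A gene in every library, in TMM-scaled CPM on a log axis, by time after activation, with symbols for the replicate number and lines for the group means. For NR4A1 and NR4A3 the 12 h libraries lie between the resting and the 5 h libraries without overlap, while the 12 h libraries of NR4A2, from 0.269 to 2.63 CPM, span its resting range. Of all IDs tested, 22.1% had 12 h libraries wholly above the resting ones and 20.8% had them wholly below the 5 h ones.

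What remained later is asked by setting the 12 h libraries against the resting ones. NR4A1 had 574, 181 and 419 footprints at 12 h, or 49.1, 39.6 and 56.3 CPM. All 3 values were above the resting libraries and below the 5 h libraries. The 12 h mean of 48.4 ± 8.38 CPM (SD, n = 3) was 6.47-fold above rest, a log2 fold change of 2.69 ± 0.16 (SE; 95% interval 2.35 to 3.03) with an adjusted p of 8.33e-12 by edgeR. NR4A3 had 130, 59 and 87 footprints, or 11.1, 12.9 and 11.7 CPM, which was also a tight group above every resting value. Its mean of 11.9 ± 0.915 CPM (SD, n = 3) was 5.63-fold above rest, at a log2 fold change of 2.49 ± 0.21 (SE; 95% interval 2.06 to 2.93) and an adjusted p of 2.43e-09 by edgeR.

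NR4A2 did not pass the test at 12 h. Its counts were 13, 12 and 2, or 1.11, 2.63 and 0.269 CPM, so that replicate 3 lay below all resting libraries and the other libraries above them. The log2 difference from rest was 1.46 ± 0.73 (SE; 95% interval -0.04 to 2.96), at an adjusted p of 0.126 by edgeR. A single library decided this: without 12 h replicate 3 the difference was 1.94 with an adjusted p of 0.0364 by edgeR, and without 12 h replicate 2 it was 0.72 with an adjusted p of 0.511. Over all 9 fits with 1 library left out, the adjusted p by edgeR ran from 0.0364 to 0.511. With 27 footprints at 12 h and 12 at rest, the ratio of pooled CPM was 2.60, with an exact 95% counting interval from 1.27 to 5.63 that leaves out the spread between libraries. Thus 2 of the 3 members were called higher at 12 h, beside 15.8% of all IDs tested, and those 2 also had no overlap with the resting libraries, beside 22.1% of IDs. The median log2 fold change was 2.49 over the members and 0.04 over all IDs.

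Whether the early level held was tested directly between the activated groups. All 3 members were lower at 12 h than at 5 h. NR4A1 fell by 3.77 ± 0.14 (log2, SE), from 665 to 48.4 CPM or 13.6-fold, at an adjusted p of 1.55e-15 by edgeR. NR4A3 fell by 3.44 ± 0.15 (log2, SE), from 128 to 11.9 CPM or 10.9-fold, with an adjusted p of 5.52e-14 by edgeR. NR4A2 fell by 2.56 ± 0.60 (log2, SE), from 7.33 to 1.34 CPM or 5.89-fold, with an adjusted p of 0.00239 by edgeR. In each gene the highest 12 h library was below the lowest 5 h library. All 3 were called lower, beside 13.5% of all IDs, and libraries without overlap in that direction were seen for 20.8% of IDs. The median log2 difference was -3.44 over the members and -0.05 over all IDs. Ordered from the largest fall, NR4A1 was number 17 of 13920 IDs, NR4A3 number 28 and NR4A2 number 71. For NR4A2, tested only because of its 5 h counts, the call and rank are again not independent of the filter. The same 5 h libraries enter this comparison and the first, and the same resting libraries enter both comparisons against rest.

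**Figure D3:**
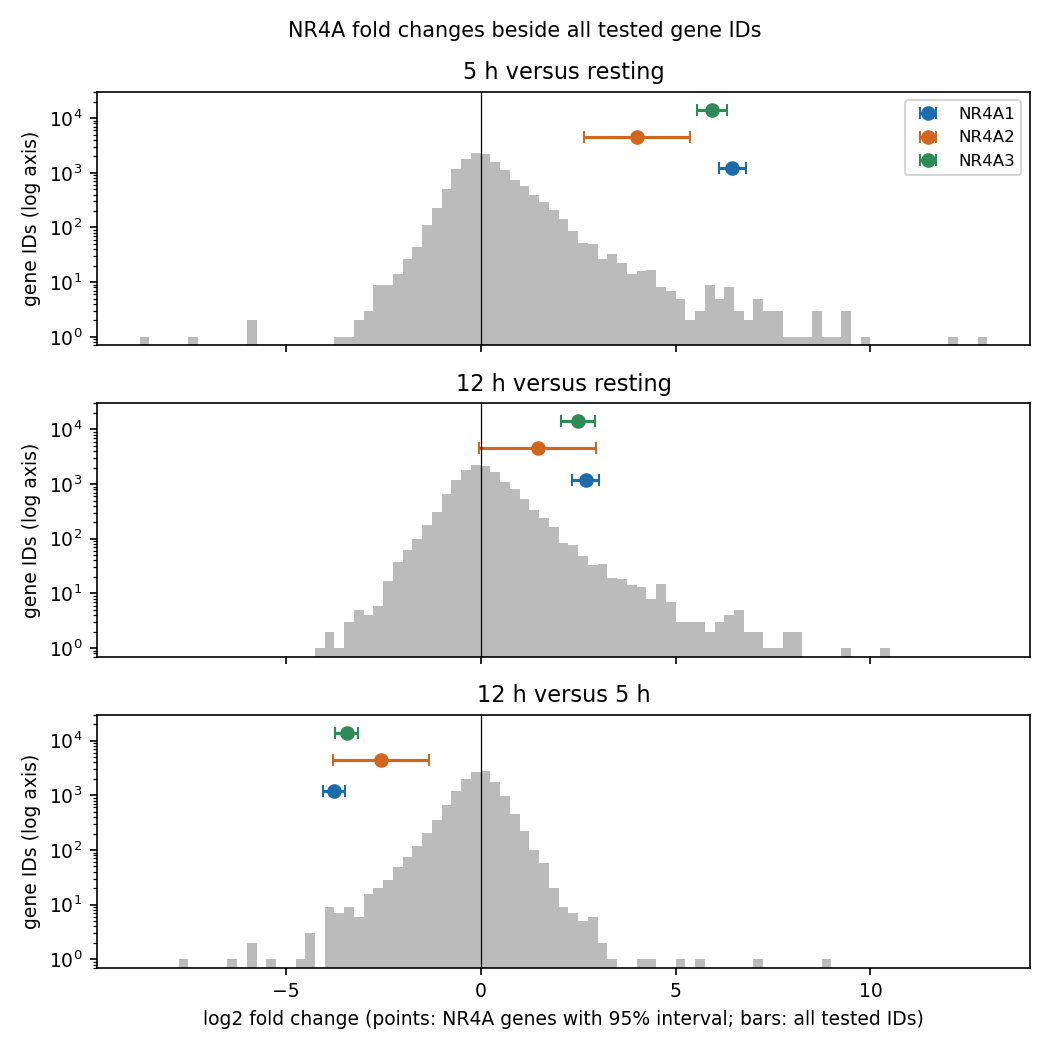
Log2 fold changes of the NR4A genes with 95% intervals (points, whose height has no meaning) over the histogram of all 13920 tested IDs (grey, log axis), 1 panel per comparison. The points lie in the upper tail at 5 h versus resting, the NR4A2 interval reaches 0 at 12 h versus resting, and all 3 points lie in the lower tail at 12 h versus 5 h.

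Most of the early gain was gone by 12 h. As a share of the mean rise from rest to 5 h, the NR4A1 gain still present in the 12 h libraries was 6.33%, 4.88% and 7.42%, and that of NR4A3 was 7.18%, 8.61% and 7.64%. The means were 6.21% ± 1.28 and 7.81% ± 0.726 (SD, n = 3), with the spread taken over the 12 h libraries alone. These small shares still left both genes several-fold above rest. For NR4A2 the values were 9.73%, 31.7% and -2.51%, too scattered to place it above or below the others. Summed over the family, the resting level of 10.1 ± 0.355 CPM was followed by 800.1 ± 147 CPM at 5 h and by 61.6 ± 6.57 CPM at 12 h (SD, n = 3).

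The share of each gene in the summed NR4A counts shows whether the members kept pace with each other. It is not divided by the length of the coding sequence, so only its change over time is read here. NR4A2 held 5.62%, 3.41% and 4.08% of NR4A counts in the resting libraries and 1.20%, 0.519% and 0.909% at 5 h, with no overlap. At 12 h it held 1.81%, 4.76% and 0.394%, overlapping both other groups. NR4A1 held 75.1% ± 4.04 in resting cells, 83.0% ± 0.897 after 5 h and 78.1% ± 5.58 after 12 h (SD, n = 3). NR4A3 held 20.6% ± 4.46, 16.2% ± 1.22 and 19.6% ± 3.38 at the same times, with overlap between rest and 5 h. The resting libraries had between 88 and 98 NR4A counts each, which leaves wide intervals: the NR4A2 share of 4.08% in resting replicate 3 had an exact Clopper-Pearson 95% interval from 1.12% to 10.1%.

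**Figure D4:**
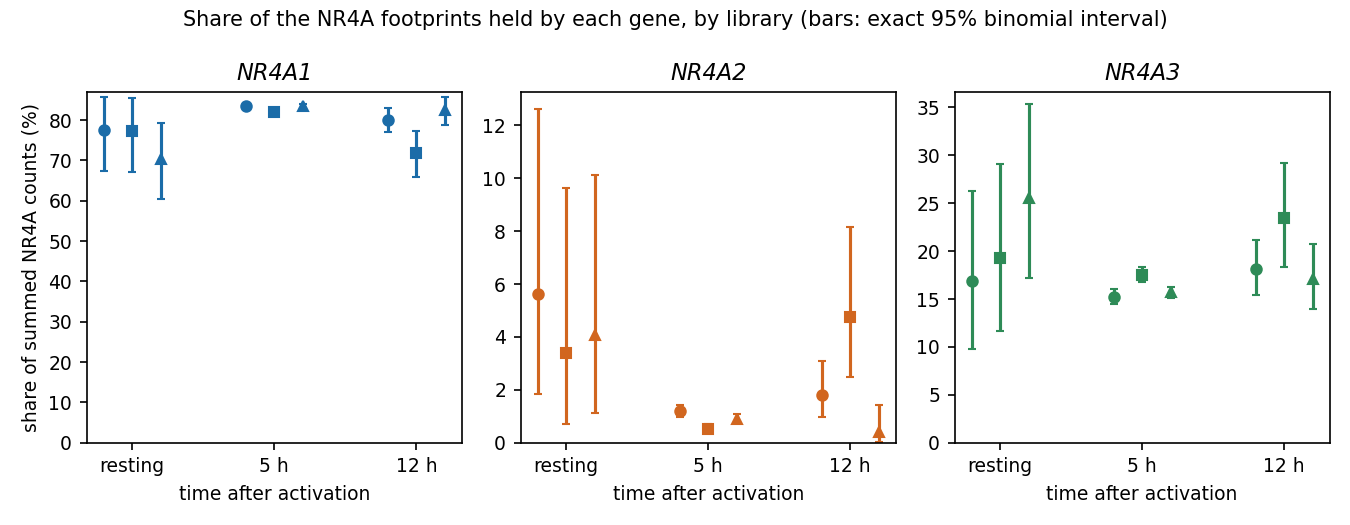
Share of the summed NR4A counts held by each gene in every library, in percent with exact 95% binomial intervals, by time after activation, with a separate axis for each gene. The NR4A2 share is lower in all 5 h libraries, 0.519% to 1.20%, than in the resting libraries, 3.41% to 5.62%.

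A difference in pace between members was tested on the log2 ratio of their CPM within each library, with 0.5 CPM added to both, by an exact permutation test over the 9 libraries and 3 groups whose smallest possible p is 0.00357. The log2 ratio of NR4A2 to NR4A1 was -3.10 ± 0.15 in resting cells, -6.53 ± 0.53 after 5 h and -4.94 ± 1.26 after 12 h (SD, n = 3), with an exact permutation p of 0.00714, adjusted to 0.0161 over the 3 pairs. The log2 ratio of NR4A3 to NR4A2 went from 1.44 ± 0.36 to 4.17 ± 0.65 and 2.98 ± 0.95, with an exact permutation p of 0.0107, adjusted to 0.0161. That of NR4A3 to NR4A1 was -1.66 ± 0.32, -2.36 ± 0.12 and -1.96 ± 0.34, with an exact permutation p of 0.0679, unchanged by the adjustment. The calls depended on the added 0.5 CPM, which is about the resting level of NR4A2 itself. With none added, the ratio of NR4A2 to NR4A1 still dropped by 2.52 from rest to 5 h, but the adjusted exact permutation p was 0.211 for every pair. With 0.5 CPM added, leaving out any 1 resting or 5 h library also ended both calls, with adjusted exact permutation p up to 0.0750 and differences in the same direction. With 0.5 CPM added, every 5 h library had a lower ratio of NR4A2 to NR4A1 than any resting library, and a higher ratio of NR4A3 to NR4A2. The same resting libraries serve all these comparisons. The fitted log2 intervals at 5 h versus resting, up to 5.38 for NR4A2 and from 5.56 for NR4A3, lay close and do not compare the genes directly. A smaller rise of NR4A2 was thus the direction of the values. This test did not settle it, since its calls needed the added value and every resting and 5 h library.

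Over the 9 libraries, the log2 CPM of NR4A1 and NR4A3 followed each other closely, with a Pearson r of 0.995. Among 13919 other IDs, NR4A1 was the nearest to NR4A3 and NR4A3 the second nearest to NR4A1, after ENSG00000102760.13 at 0.998. An r above 0.95 with NR4A1 was reached by 150 IDs. NR4A2 was further off, with an r of 0.872 to NR4A1 and 0.886 to NR4A3. The libraries form 3 groups and these values mostly describe the shared rise and fall between groups. Within the 12 h group the order differed between genes, since replicate 2 was the lowest for NR4A1 and the highest for both NR4A2 and NR4A3. That library had the lowest total, with 12 counts of NR4A2 and 59 of NR4A3. Whether the order goes beyond counting error was not tested.

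In the authors' deposited table of log2 normalized values, NR4A1 and NR4A3 are listed and NR4A2 is not, although it has a count in every library. The authors' deposited table gives NR4A1 values of 6.16, 6.07 and 6.01 at rest, 12.7, 12.1 and 12.6 at 5 h and 8.79, 8.47 and 8.98 at 12 h, on the log2 scale. For NR4A3 the authors' deposited table gives 4.03, 4.13 and 4.59 at rest, 10.2, 9.92 and 10.2 at 5 h and 6.66, 6.86 and 6.73 at 12 h. The order of the groups is the same as in the counts, and in the 12 h group replicate 2 is again the lowest for NR4A1 and the highest for NR4A3.

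**Figure D5:**
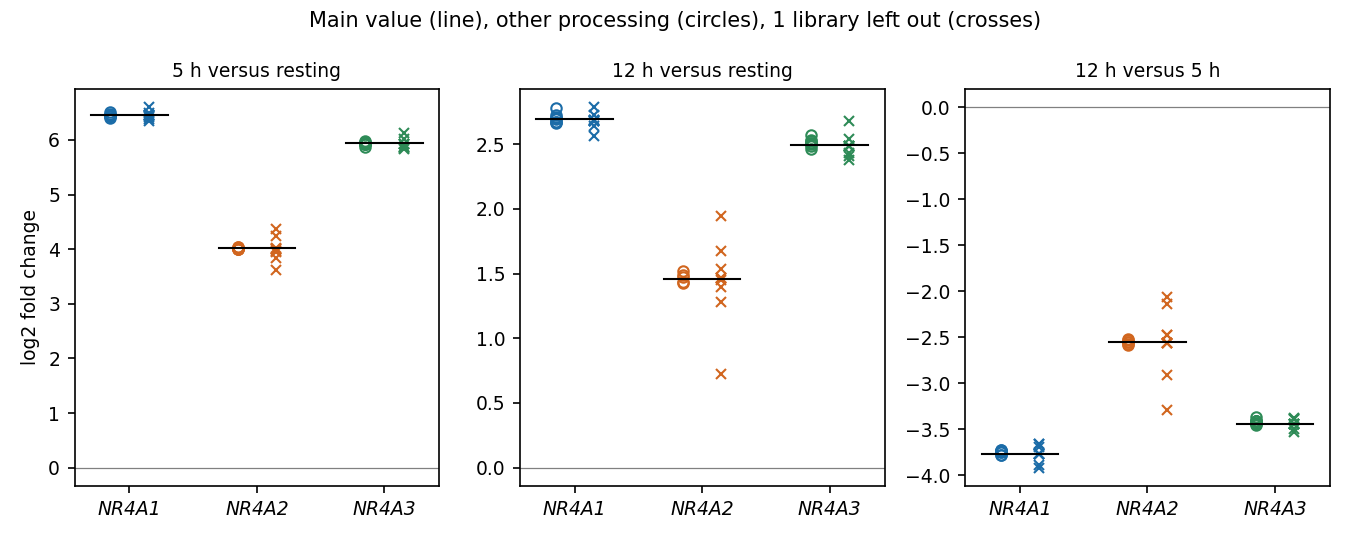
Log2 fold change of each NR4A gene in each comparison: the main value (line), other scalings, filters and tests (circles) and fits with 1 library left out (crosses). For NR4A2 at 12 h versus resting the crosses run from 0.72 to 1.94, while the NR4A1 crosses run from 2.56 to 2.79.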

How the data were processed

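Whole-number ribosome footprint counts per Ensembl gene ID were deposited by the authors with no normalization, as 1 column per library. Tools named in the submitters' processing notes were DESeq2, RSEM, Bowtie, bedtools and cutadapt 3.2, with the genome build GRCh38.p13. Not given in the sources used here were their roles, the annotation release and the handling of fragments shared by related genes, so fragments from stretches that the NR4A genes share could be split between them. The labels' protocol describes mRNA libraries from total RNA, and how footprints were isolated is not given. A second table of log2 values deposited by the authors lists 11572 IDs. Each value equals log2(count / size factor + 1), with 1 size factor per library, within 5.03e-09.

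Counts were tested with edgeR 4.0.16 in R 4.3.3: filterByExpr, TMM, glmQLFit on all 9 libraries and glmQLFTest, with Benjamini-Hochberg adjustment over all IDs in each comparison. The common biological coefficient of variation was 15.6%. The edgeR comparisons against rest were tested on simulated data in which only IDs above a minimum expected count were changed. Counts as low as those of NR4A2 at rest, and rises as large as those of the members at 5 h, were not covered. Alternatives were DESeq2 1.42.0, other scalings and filters, fits of 6 libraries, a replicate block and leaving out each library. Limma 3.58.1 on the deposited log2 values, ratios with no pseudocount and the promoter motifs, including the loose MEF2 form, were chosen after seeing the data. Figures used matplotlib 3.10.9. The SE of each fold change was computed back from the fold change and the statistic of its quasi-likelihood test, and its interval from that SE. Intervals of fitted fold changes include the spread between libraries. Binomial intervals and those of pooled ratios cover counting error only and leave out the spread between libraries. They treat every fragment as an independent molecule, which amplified fragments are not.

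The members and lists were chosen with earlier results of these data known. The rule for naming took the 3 members, the IDs with a symbol that were most like them, and list genes. All 8 lists (other nuclear receptors, signal inputs, partners, tolerance genes, early response genes and T, B and myeloid markers) were written as symbols. The gene table, RefSeq of GRCh38.p14, pairs no Ensembl ID with a symbol, so no list was analysed, and only the members are named, with 1 further ID given by its number. Division by coding length was not made, since coding lengths were not used here.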

Additional observations from a re-analysis of the deposited data

Results flagged for a closer look

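For all 3 genes the difference from the resting libraries (0 h) changed between the 2 times, tested directly as 12 h against 5 h by edgeR. It was smaller at 12 h by a log2 difference of -3.77 for NR4A1 (adjusted p 1.55e-15), -3.44 for NR4A3 (adjusted p 5.52e-14) and -2.56 for NR4A2 (adjusted p 0.00239), each lower in 3 of 3 libraries at 12 h than in any at 5 h. Of all IDs tested, 13.5% were called lower and 20.8% had no overlap in that direction. NR4A2 passed the low-count filter only through its 5 h counts.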

How the results depend on the processing

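Every call on NR4A1 and NR4A3 kept its direction and stayed past the threshold in all fits run. Those on NR4A2 at 5 h versus resting and 12 h versus 5 h did so in the fits that tested it. NR4A2 passed the low-count filter only through its 5 h counts, so its calls are not independent of that filter. NR4A2 at 12 h versus resting ran from 0.72 to 1.94 (log2) with 1 library left out, and passed only without 12 h replicate 3. Counts of called IDs stayed within 1.5 times of the main ones. With at least 50 counts in 3 libraries, and in limma on the deposited log2 values, NR4A2 was not tested, nor was it in the fit of the 6 libraries at 12 h versus resting.

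The ratios between members changed with the pseudocount, given here as the log2 ratio at 5 h minus that at rest. NR4A2 to NR4A1 was -2.78 with 0.1 CPM added and -2.52 with none, and NR4A3 to NR4A2 was 2.26 and 2.04. None of these passed, at adjusted exact permutation p of 0.123 and 0.211. With 2 CPM, NR4A3 to NR4A1 was -1.11 and passed, at an adjusted exact permutation p of 0.00357. An added value takes up more of a low level than of a high one, which changes the ratio by construction. With 1 library left out these differences ran from -3.66 to -3.14, from 2.38 to 3.01 and, for NR4A3 to NR4A1, from -0.83 to -0.52. The first and second no longer passed whichever single resting or 5 h library was left out, and the third passed only without 12 h replicate 2.

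Same-numbered libraries did not deviate together (r from -0.06 to 0.09), and neither did libraries of different numbers (r from -0.11 to 0.09). The labels do not state a pairing, and these values cannot exclude one. The replicate block gave 4644, 4689 and 3373 called IDs in the 3 comparisons, and left the NR4A calls as they were. Alternatives for the gene lists were not run, because no list could be matched. Shares were taken per count only, since coding lengths were not used here. Depth limits NR4A2 most, with 12 counts in all at rest.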
